A study of Mus musculus with 15 samples.

Results

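The outer medulla (OM), the middle zone of the kidney, was compared with the equally weighted mean of the zones on either side of it, the cortex and the inner medulla (IM). The OM group holds 5 of the 15 libraries of the series, and the cortex and the IM hold 5 each. Every library was made from total RNA of kidney tissue dissected by zone, from male mice of wild type genotype and of a strain labelled C56BL/6N, and the sources used here name no treatment and no age. Nothing in the labels ties the 5 libraries of a zone to separate animals, so the p-values measure only how far these libraries differ, which may be technical. A bulk library averages all cells of the dissected piece, and fewer cells of a type cannot be told apart from less RNA per cell.

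The outer medulla is where the straight part of the proximal tubule, called S3, descends before it joins the thin limb, and where the thick ascending limb starts its climb back towards the cortex. The straight proximal tubule secretes organic anions and takes up what is left of filtered sugars and amino acids, whereas the thick ascending limb reabsorbs salt without water and so dilutes the tubular fluid. Bundles of vasa recta, collecting ducts and interstitial cells run through the same zone.

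Expression was given in TPM, transcript abundance corrected for gene length and scaled to a fixed total, with 25030 gene symbols per library. Of these, 15052 genes reached at least 1 TPM in at least 5 libraries and were tested on log2(TPM + 1) with limma, a linear model with moderated variances. The spread of a gene is shared over all zones, so its comparison with cortex also carries the scatter of the IM libraries. A peak is a gene called higher in OM than in cortex, higher than in IM, and higher than the mean of both, each at an adjusted p under 0.05. A dip is the reverse, and a gradient is a gene in which OM was called between its neighbours. As deposited, the median gene stood 0.51 lower in OM than in IM on the log2 scale, and 0.11 higher than in cortex. After median-ratio scaling both medians were -0.03, and the median of the contrast moved from -0.19 to -0.02, so each call is given on both scales.

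The landmark genes of the zones checked the labels. Aqp2, the water channel of principal cells, was at 5948 to 9476 TPM in the IM libraries, 374 to 532 TPM in OM and 171 to 267 TPM in cortex. Slc34a1, the phosphate transporter of the convoluted proximal tubule, was at 4504 to 5602 TPM in cortex, 2282 to 3256 TPM in OM and 372 to 726 TPM in IM. The IM libraries were not free of transcripts of tubule segments that textbook anatomy places outside that zone. Slc12a1, the salt cotransporter NKCC2 of thick ascending limb cells, was at 556 to 1314 TPM in IM beside 626 to 1069 TPM in OM. Slc7a13, an amino acid transporter of S3, was at 175 to 559 TPM in IM beside 1201 to 1552 TPM in OM, and library 4 held the lowest IM value. How much tissue of a neighbouring zone each dissected piece carried was not tested.

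The contrast of OM against the mean of its neighbours was called above 0 for 2256 genes (15% of those tested) and below 0 for 7611 genes (50.6%). After scaling the counts were 3981 (26.4%) and 4064 (27%), so the excess of lower calls was seen only as deposited. The scaling centres the libraries on the median gene and so tends to balance such counts. Whether the excess reflects a difference between the zones was not tested. A contrast that differs from 0 does not make a peak, since 370 of the higher (2.46% of genes tested) and 2154 of the lower genes (14.3%) were gradients as deposited, and 984 (6.54%) and 745 (4.95%) after scaling. Peaks proper numbered 423 genes (2.81% of those tested), and dips 193 genes (1.28%). After scaling there were 478 peaks (3.18%) and 368 dips (2.44%). On both scales 234 genes were peaks and 57 were dips, and 0 genes were a peak on one scale and a dip on the other. Against cortex alone, 28.3% of genes were called higher in OM and 6.3% lower as deposited, and 16.2% and 17.8% after scaling. Against IM alone, 17.2% were higher and 66.4% lower as deposited, and 36.3% and 38.1% after scaling. Gradients were far more frequent than peaks or dips, with 3917 genes (26%) as deposited and 3274 (21.8%) after scaling.

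The median peak was larger than the median dip. The median peak gene stood 0.58 over cortex and 0.66 over IM on the log2 scale, with a median OM level of 35.5 TPM. The median dip gene stood at -0.33 against cortex and -0.51 against IM, with a median OM level of 19.8 TPM. These medians are as deposited, where all tested genes had medians of 0.11 against cortex and -0.51 against IM. The median dip was thus no deeper from IM than the median gene. After scaling, 136 of the dips as deposited were no dips, and 55 of these were gradients. A log2 difference of at least 1 to both neighbours was reached by 66 peaks (0.438% of genes tested) and by 2 dips (0.0133%), Spink8 and the microRNA row Mir7664. After scaling these counts were 94 (0.625%) and 5 (0.0332%), and 55 genes were strong peaks on both scales. All 5 OM libraries lay above all 10 neighbours for 315 genes (2.09%), and below all of them for 108 genes (0.718%). After scaling these counts were 335 (2.23%) and 202 (1.34%).

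**Figure D1:**
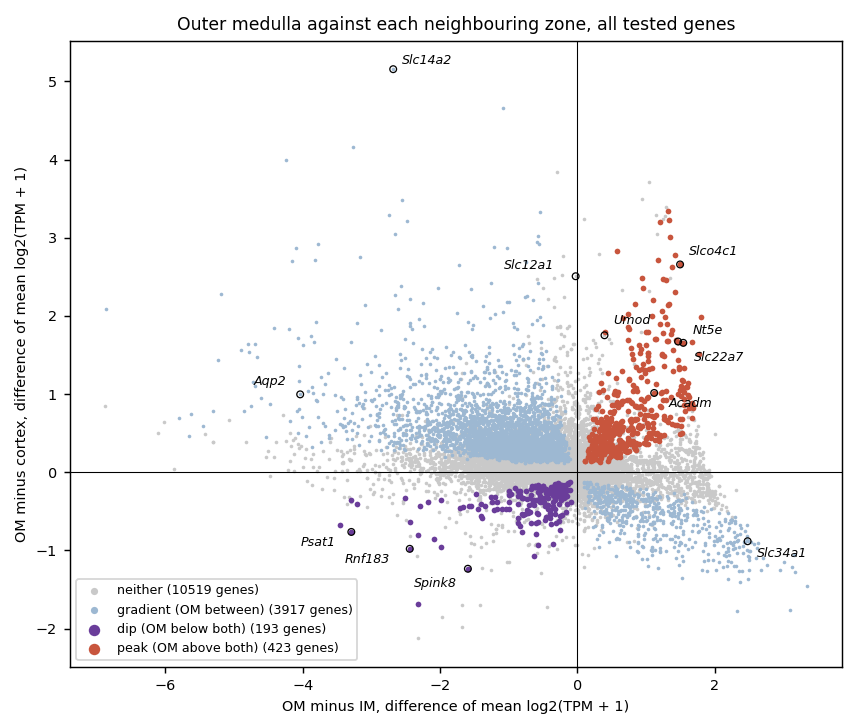
Each point is a tested gene, placed by its OM minus IM (x axis) and OM minus cortex (y axis) difference of mean log2(TPM + 1) as deposited, with colours for peak, dip, gradient and neither, and circles for genes named on the plot. The 423 peaks occupy the upper right quadrant and the 193 dips the lower left, and the 3917 gradients fill the other 2 quadrants. At least 1 away from both axes lie 66 peaks and 2 dips.

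The size of the peaks was uneven between libraries. Library 4 of IM was the lowest IM library for 64 of the 66 strong peaks, library 5 of OM was the highest OM library for 51, and library 1 of cortex was the highest cortex library for 61. Without library 4 of IM, 34 strong peaks were left, all of them among the 66, and 59 of the 66 were still peaks. Without library 5 of OM, 44 strong peaks were left and 60 of the 66 were still peaks. Without library 1 of cortex there were 81 strong peaks. Without cortex library 1, OM library 1 and IM library 4 together there were 551 peaks, 45 of them strong.

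Transporters of organic anions were among the leading peaks. The naming rule took only peaks on both scales whose OM libraries all lay above every library of both neighbours as deposited. Among the 120 peak genes that passed the naming rule, the 14 with the largest smaller difference included 3 members of the Slc22 family and Slco4c1, an organic anion transporter of the basolateral membrane. Slc22a7, which carries organic anions such as prostaglandins and nucleotides, was at 426, 406, 472, 359 and 426 TPM in OM libraries 1 to 5. The same gene was at 257, 90.8, 184, 111 and 81.5 TPM in the cortex libraries and at 200, 172, 182, 50.6 and 181 TPM in the IM libraries. No neighbour reached the lowest OM library, as the naming rule required, and cortex library 1 and IM library 4 stood at the far ends of their groups. The log2 difference of Slc22a7 was 1.66 ± 0.37 (SE) over cortex, with an adjusted p of 0.00311, and 1.54 ± 0.37 over IM, with an adjusted p of 0.0013.

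Slco4c1 rose from a low level in both neighbours. It was at 15.4, 29.4, 21.3, 21.3 and 34.4 TPM in OM, at 0.965 to 8.32 TPM in cortex and at 3.43 to 10.6 TPM in IM. Its log2 difference was 2.66 ± 0.39 over cortex (adjusted p = 0.00014) and 1.5 ± 0.39 over IM (adjusted p = 0.00254). The gene model of Slco4c1 overlaps that of Panct2, also a peak at 5.46 to 7.51 TPM in OM. Whether their counted sequence overlaps was not established, and any shared reads cannot be assigned to either gene.

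Slc22a19 and Slc22a13, a pair of further organic anion transporters, also stood highest in OM. Their cortex and IM ranges overlapped widely, and cortex was not compared with IM. Slc22a19 was at 212, 164, 185, 181 and 261 TPM in OM, at 10.5 to 92.4 TPM in cortex and at 27.3 to 116 TPM in IM. Slc22a13, which exchanges urate and nicotinate, was at 182, 179, 176, 178 and 240.0 TPM in OM, at 14.3 to 84.1 TPM in cortex and at 28.1 to 107 TPM in IM. In neither gene did the OM libraries overlap a neighbour, as the naming rule required, and cortex library 1 and IM library 4 were again the extremes. Of 22 tested genes named Slc22a, a list made after their values were seen, 5 were peaks as deposited and 6 after scaling, beside 2.81% and 3.18% of all tested genes. Gradients numbered 5 on each scale, near the 26% and 21.8% of all tested genes, and Slc22a23 was a dip as deposited. Slc22a26, also named after its values were seen, was a peak on both scales at 18.5 to 32.7 TPM in OM against 1.10 to 10.1 TPM in cortex and 2.68 to 15.3 TPM in IM. Slc22a6, the main organic anion exchanger of the convoluted segments, behaved otherwise, as a gradient falling from 667 TPM in cortex through 360 TPM in OM to 57.8 TPM in IM (means).

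Napsa, Mep1b and Nt5e, which encode 2 proteases and an ectoenzyme, were also among the 14. Napsa, the gene of the aspartic protease napsin A, was the most abundant of the 14 at 4938, 4509, 4259, 4626 and 5666 TPM in OM. It was at 1105 to 2585 TPM in cortex and at 658 to 2597 TPM in IM. The differences were 1.69 ± 0.33 over cortex (adjusted p = 0.00111) and 1.44 ± 0.33 over IM (adjusted p = 0.000813). Mep1b, the beta subunit of the metalloprotease meprin, was at 475, 465, 468, 475 and 612 TPM in OM, at 50.6 to 245 TPM in cortex and at 75.2 to 261 TPM in IM. Nt5e, the ectoenzyme CD73 that makes adenosine from AMP, was at 83.9, 82.5, 103, 118 and 138 TPM in OM, at 17.0 to 46.6 TPM in cortex and at 17.2 to 54.1 TPM in IM. As deposited, Nt5e was 1.67 ± 0.31 over cortex (adjusted p = 0.00084) and 1.47 ± 0.31 over IM (adjusted p = 0.000481), a nearly symmetric peak on that scale.

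**Figure D2:**
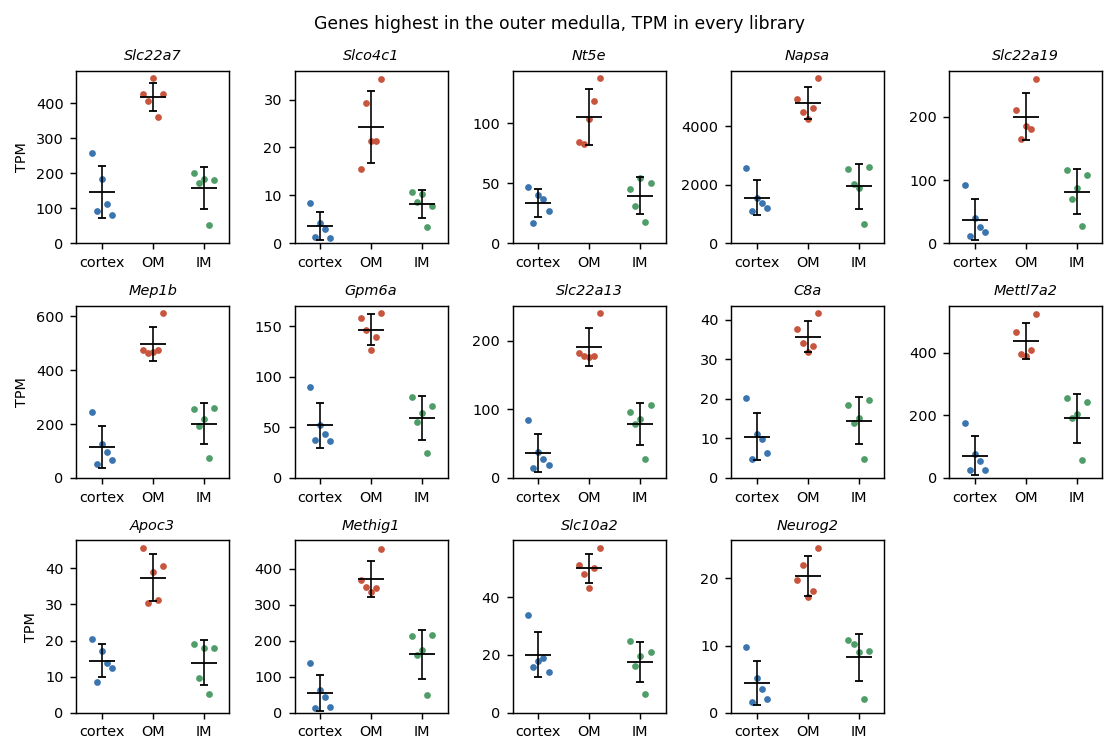
TPM (y axis, linear from 0) of the 14 leading peak genes in each of the 15 libraries, 1 panel per gene, with points for libraries 1 to 5 from left to right within each zone and black marks for the zone mean ± SD (n = 5). The OM points lie above all points of both neighbours in every panel, as the naming rule required, and for Slc22a7 the lowest IM point is library 4 at 50.6 TPM.

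Bile acid and plasma protein genes, best known from ileum and liver, were also among the 14. Slc10a2, the apical sodium-dependent bile acid transporter, was at 51.1, 48.1, 43.1, 50.1 and 57.1 TPM in OM, at 14 to 33.7 TPM in cortex and at 6.62 to 24.8 TPM in IM. C8a, the alpha chain of complement component C8, was at 31.8 to 41.7 TPM in OM, 4.85 to 20.2 TPM in cortex and 4.69 to 19.8 TPM in IM. Apoc3, an apolipoprotein of triglyceride-rich particles, was at 30.3 to 45.7 TPM in OM, 8.44 to 20.3 TPM in cortex and 5.08 to 18.9 TPM in IM. All 3 genes kept the 5 OM libraries clear of both neighbours, as the naming rule required. The C8a model overlaps that of Fyb2, a peak at 1.80 to 2.51 TPM in OM.

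Mettl7a2, a methyltransferase-like gene, and Methig1 gave the steepest differences over cortex among the 14. Mettl7a2 was at 468, 396, 390, 408 and 525 TPM in OM, at 23.8 to 174 TPM in cortex and at 56.6 to 256 TPM in IM. The log2 difference of Mettl7a2 was 3.01 ± 0.50 over cortex (adjusted p = 0.000386) and 1.35 ± 0.50 over IM (adjusted p = 0.0219). These gene models overlap, Methig1 with Mettl7a2 and with Higd1c, and all 3 were peaks, so they cannot be counted as independent. Methig1 was a peak in 17 of 24 alternative fits and Mettl7a2 in 23, whereas the other 12 leading peaks were peaks in all 24. The 24 include median-ratio scaling, under which the naming rule already required a peak. The other alternatives refit the same libraries, and the 14 were chosen for large differences, so they are no independent check.

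The remaining leading peaks were Gpm6a, a membrane glycoprotein gene best known from neurons, and Neurog2, a proneural transcription factor gene. Gpm6a was at 126 to 164 TPM in OM, 36.9 to 89.5 TPM in cortex and 24.6 to 80.2 TPM in IM. Neurog2 was at 19.8, 22.0, 17.2, 18.1 and 24.5 TPM in OM, at 1.64 to 9.82 TPM in cortex and at 2.08 to 10.8 TPM in IM. The Neurog2 difference was 2.15 ± 0.40 over cortex (adjusted p = 0.00082) and 1.33 ± 0.40 over IM (adjusted p = 0.00627).

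Most genes of the straight proximal tubule list peaked in OM. Of the 13 tested genes on the S3 list, 9 were peaks as deposited and 7 after scaling, beside 2.81% and 3.18% of all tested genes, and the median contrast was 1.34 beside -0.19 for all genes. The 9 were Slc22a7, Slc22a19 and Mep1b with Slc7a12, Acsm3, Slc5a1, Slc5a10, Aadat and Slc6a18. The list was chosen with earlier results of these data known, so its share of peaks is a description. Slc22a7, Slc22a19 and Mep1b are also among the leading peaks above. Over the 24 alternatives the count ranged from 6 to 11, being 7 without library 5 of OM and 11 without library 4 of IM or library 1 of cortex.

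Slc7a12, an amino acid transporter gene, was the lowest of the S3 peaks in level at 6.87, 10.5, 5.51, 8.22 and 9.53 TPM in OM, against 0.989 to 3.52 TPM in cortex and 0.671 to 4.12 TPM in IM. Acsm3, a mitochondrial acyl-CoA synthetase gene, was at 964, 874, 1086, 1052 and 1279 TPM in OM, at 341 to 689 TPM in cortex and at 136 to 504 TPM in IM. Aadat, which encodes an aminotransferase of the kynurenine pathway, was at 527 to 690 TPM in OM, 192 to 376 TPM in cortex and 68.5 to 329 TPM in IM. In all 3 genes OM lay clear of both neighbours on the scale as deposited. The Acsm3 model overlaps that of Eri2, at 255 to 359 TPM in OM and a peak as deposited only.

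The luminal sugar and neutral amino acid transporters of S3 had shallower peaks on the cortical side. Slc5a1, the high-affinity sodium-glucose cotransporter SGLT1, was at 46.7, 58.5, 57.1, 55.2 and 65.9 TPM in OM, at 33.4 to 40.0 TPM in cortex and at 12.3 to 29.4 TPM in IM. Its difference over cortex was 0.62 ± 0.18 (adjusted p = 0.0136) as deposited and 0.46 after scaling (adjusted p = 0.0766). Slc5a10 and Slc6a18 likewise lost the cortical call after scaling, with adjusted p of 0.101 and 0.106, although on the deposited scale all their OM libraries lay above the neighbours.

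Cyp7b1, an oxysterol hydroxylase gene, was a peak after scaling only. It was at 591, 467, 474, 403 and 603 TPM in OM, at 16.3 to 212 TPM in cortex and at 70.5 to 333 TPM in IM, with no overlap, and its difference over IM was 1.25 ± 0.57 (adjusted p = 0.0562). Slc7a13 at 1201 to 1552 TPM in OM and 682 to 1103 TPM in cortex missed the call over cortex on both scales, with an adjusted p of 0.0624 as deposited. Slc3a1, the heavy chain of the cystine transporter, was at 593 to 792 TPM in OM, 441 to 563 TPM in cortex and 107 to 283 TPM in IM, and its difference of 0.49 ± 0.21 over cortex had an adjusted p of 0.0877. Ggt1, the brush border gamma-glutamyltransferase, was level with cortex at 1366 ± 58.8 TPM (SD, n = 5) against 1370.3 ± 107 TPM and higher than in IM.

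Genes of the convoluted proximal tubule were mostly gradients that fell from cortex through OM to IM. Of 12 tested genes 10 were gradients on each scale, beside 26% and 21.8% of all tested genes, as with Cyp2e1, a cytochrome P450 gene, at 2840, 1339 and 207 TPM in cortex, OM and IM (means). Peaks numbered 0 on either scale in this list and 0 among the 5 androgen-regulated proximal tubule genes, beside 2.81% and 3.18% of all tested genes. The most abundant androgen-regulated member was Kap, the kidney androgen-regulated protein gene, at 82206 to 91482 TPM in OM, 68072 to 82081 TPM in cortex and 10496 to 36874 TPM in IM. The OM libraries of Kap lay above all neighbours, yet its difference over cortex was 0.25 ± 0.25 with an adjusted p of 0.46. This SE is shared over the zones and so also holds the spread of the IM libraries.

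**Figure D3:**
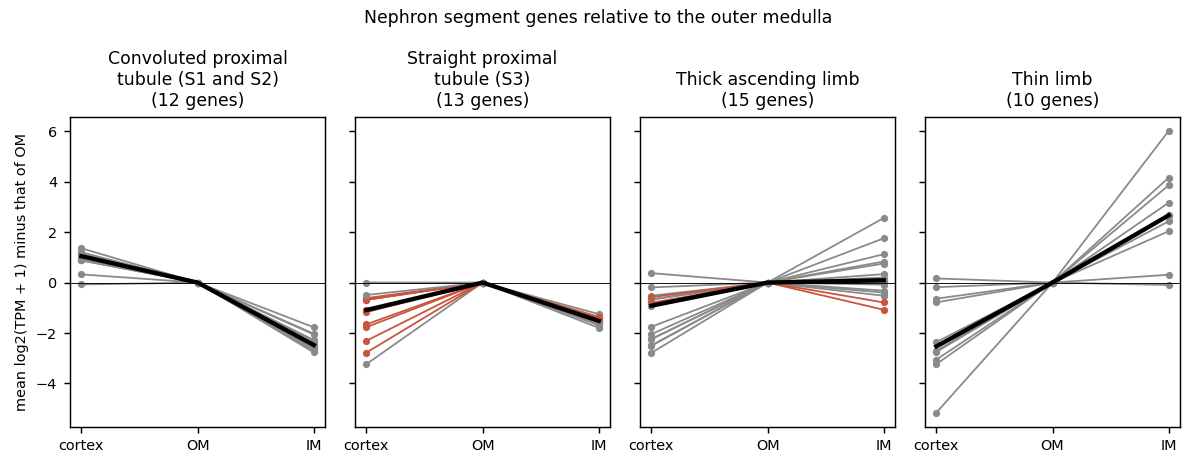
Mean log2(TPM + 1) of each tested gene minus its OM mean (y axis) in cortex, OM and IM (x axis), 1 panel each for the convoluted proximal tubule, S3, thick ascending limb and thin limb lists, with a line per gene, red for peaks as deposited, and the list median in black. The S3 panel holds 9 red lines of 13, the thick ascending limb panel 2 of 15, and the other panels 0.

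Most thick ascending limb genes were higher in OM than in cortex, and how many were also higher than in IM depended on the scale. Of 15 tested genes, 12 were called higher in OM than in cortex and 3 higher than in IM as deposited, and 2 were peaks, Egf and Casr, beside the 28.3%, 17.2% and 2.81% of all tested genes. After scaling 10 were called higher than in cortex, 8 higher than in IM and 4 were peaks, Slc12a1, Umod, Cldn16 and Irx1, beside 16.2%, 36.3% and 3.18%. The median difference of the list from IM was -0.09 as deposited and 0.42 after scaling on the log2 scale. No gene of the list was a peak on both scales, and the count as deposited was 0 when any one of the libraries 2 to 5 of OM or 1, 3 and 4 of cortex was left out. Egf was a peak in 15 of the 24 alternatives and Casr in 10.

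Umod, the gene of the secreted glycoprotein uromodulin, was at 1780, 3311, 3848, 3391 and 4094 TPM in OM. It was at 780 to 1082 TPM in cortex and at 3096, 1492, 3337, 2741 and 1886 TPM in IM. OM libraries 1 and 2 lay within the IM range, and the other 3 lay above it. The difference of Umod over cortex was 1.75 ± 0.24 (adjusted p = 7.98e-05), and over IM it was 0.40 ± 0.24 as deposited (adjusted p = 0.14) and 0.94 after scaling (adjusted p = 0.00251).

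Slc12a1 was at 626, 924, 1069, 875 and 1038 TPM in OM and at 140 to 198 TPM in cortex, 2.51 ± 0.23 apart (adjusted p = 2.03e-06). Its IM values of 1314, 556, 1194, 1073 and 653 TPM spread over more than the OM range, and the difference of -0.02 ± 0.23 as deposited had an adjusted p of 0.923. Egf, the epidermal growth factor gene, was at 412, 803, 806, 770 and 944 TPM in OM, 337 to 460 TPM in cortex and 207 to 566 TPM in IM. Casr, the calcium-sensing receptor gene, was at 11.1 TPM in OM library 1, at 20 to 24.0 TPM in the other 4, 10.1 to 13.5 TPM in cortex and 6.73 to 15.1 TPM in IM. Both genes were low in OM library 1, within the ranges of both neighbours, and above those ranges in the other 4 OM libraries. Irx1, a homeobox gene of this segment, was at 85.7 to 152 TPM in OM and 79.7 to 112 TPM in IM, against 8.21 to 31.7 TPM in cortex.

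The thin limb list had 0 peaks as deposited among 10 genes and 2 after scaling, Aqp1 and Fst, beside 2.81% and 3.18% of all tested genes. Aqp1, the water channel of the descending limb and the proximal tubule, was at 806 to 975 TPM in OM, 460 to 602 TPM in cortex and 1010 to 1236 TPM in IM, a gradient as deposited. Fst, the activin-binding follistatin gene, was nearly absent from cortex at 0.0297 to 0.827 TPM and similar in OM, at 9.03 to 12.6 TPM, and IM, at 6.92 to 17.1 TPM. Cryab, a small heat shock protein gene, was a gradient on both scales, rising towards IM.

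Of 8 tested fibroblast genes, 2 were peaks as deposited, Dcn and Col1a1, and 4 after scaling, when Col3a1 and Lum joined, beside 2.81% and 3.18% of all tested genes. Col1a1 was a peak in all 24 alternatives and Dcn in 23, not without cortex library 1, OM library 1 and IM library 4. Dcn, the proteoglycan decorin gene, was at 46.4, 25.5, 33.1, 41.0 and 39.8 TPM in OM, at 11.4 to 13.0 TPM in cortex and at 37.1, 14.2, 15.3, 14.8 and 30.1 TPM in IM. OM lay clear of cortex but overlapped the IM libraries 1 and 5, with differences of 1.51 ± 0.24 over cortex (adjusted p = 0.000266) and 0.80 ± 0.24 over IM (adjusted p = 0.00685). Col1a1, a fibrillar collagen gene, was at 6.72 to 11.1 TPM in OM, 4.03 to 5.31 TPM in cortex and 4.08 to 7.89 TPM in IM. Col1a2, its partner chain in type I collagen, was a gradient instead, at 12.3, 28.4 and 53.9 TPM in cortex, OM and IM (means).

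Among 9 tested leukocyte genes a single peak was called on both scales, beside 2.81% and 3.18% of all tested genes. Csf1r, the receptor of macrophage colony-stimulating factor, was at 68.4, 59.2, 68.7, 67.6 and 76.0 TPM in OM, at 15.9 to 36.5 TPM in cortex and at 26.4 to 47.6 TPM in IM. The difference of Csf1r was 1.53 ± 0.20 over cortex (adjusted p = 5.47e-05) and 0.92 ± 0.20 over IM (adjusted p = 0.000691), without overlap. Cd74, the invariant chain of MHC class II, was at 274 to 360 TPM in OM and overlapped both neighbours, and Lyz2, the macrophage lysozyme gene, was a gradient as deposited at 24.5, 48.6 and 71.5 TPM (means). Rgs5, a pericyte gene, was the single peak after scaling among 7 smooth muscle and renin genes, which had 0 peaks as deposited.

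**Figure D4:**
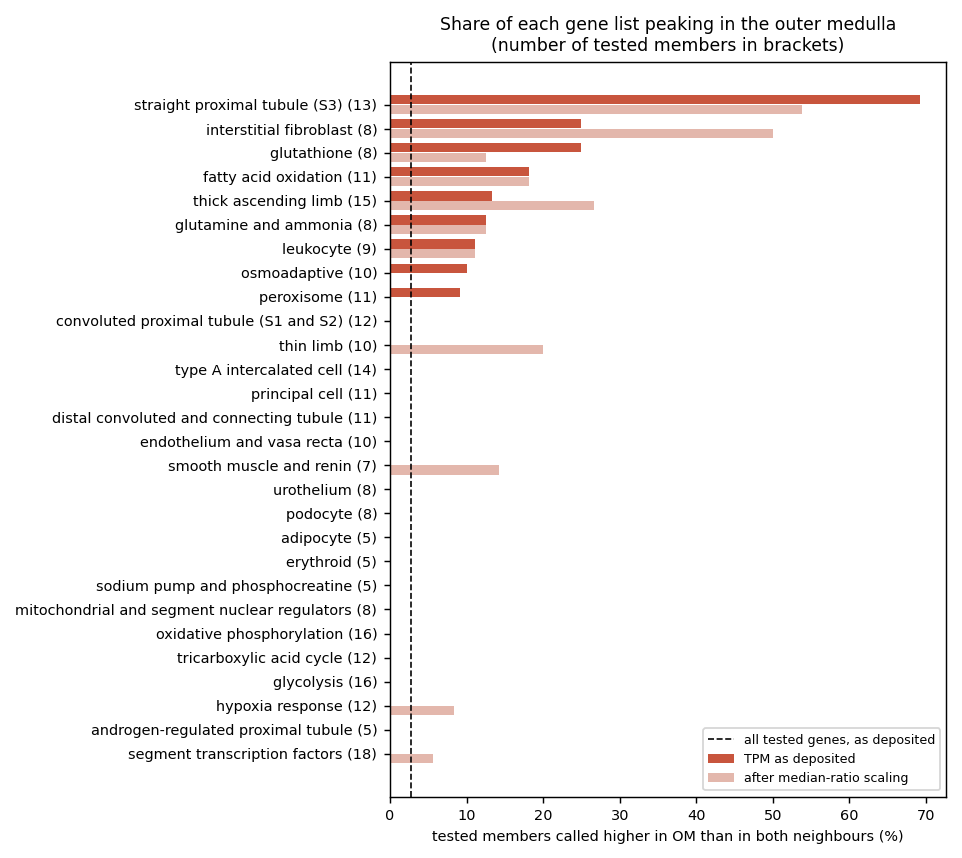
Share of tested members called peak in each fixed gene list with at least 5 tested members (x axis, percent), as deposited (dark bars) and after median-ratio scaling (light bars), with a dashed line for all tested genes as deposited at 2.81%. The S3 list stands at 69.2% as deposited and 53.8% after scaling. All lists were chosen with earlier results of these data known.

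Most other cell types had no peak as deposited. The lists of type A intercalated cells (14 genes), type B intercalated cells (4), principal cells (11), distal convoluted and connecting tubule (11), endothelium and vasa recta (10), urothelium (8), podocytes (8), adipocytes (5), erythroid cells (5) and adrenal cortex (1) had 0 peaks on either scale. With 2.81% and 3.18% of all tested genes called, 0 peaks in lists of this size says nothing particular to them. Gradients made up 8 of the 8 urothelial genes, 8 of 10 endothelial genes, 8 of 11 distal genes and all 4 type B genes as deposited, beside 26% of all tested genes. Foxi1, the master transcription factor of intercalated cells, was a dip as deposited, at 12.7 to 19.9 TPM in OM, 21.0 to 28.4 TPM in cortex and 18.2 to 28.2 TPM in IM, but not after scaling, where its difference from IM was 0.06. Gata3, a transcription factor of the collecting duct, was a dip after scaling only, at 7.22 to 10.3 TPM in OM and 8.99 to 11.7 TPM in cortex against 58.9 to 87.7 TPM in IM.

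Fat cell transcripts were uneven. Cfd, the adipsin gene, was at 0.988 to 9.42 TPM in OM, at 2.10 to 52.2 TPM in cortex and at 3.46 to 131 TPM in IM, the highest values being those of cortex library 2 and IM library 4. Its differences were -2.12 ± 0.88 from cortex (adjusted p = 0.0781) and -2.32 ± 0.88 from IM (adjusted p = 0.0248), so it was no dip. Over the 5 tested adipocyte genes the mean log2(TPM + 1) was 1.92 to 3.03 in OM, 2.09 to 5.30 in cortex and 2.75 to 5.95 in IM. The part of adherent fat in the dips was not tested.

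Among the pathway lists, fatty acid oxidation held 2 peaks on both scales out of 11 genes, beside 2.81% and 3.18% of all tested genes. Acadm, the medium-chain acyl-CoA dehydrogenase gene, was at 1457, 1371, 1425, 1297 and 1629 TPM in OM, at 640 to 906 TPM in cortex and at 355 to 880 TPM in IM. Acadl, the long-chain enzyme, had the tighter libraries, at 444, 465, 410, 409 and 469.9 TPM in OM, 288 to 340 TPM in cortex and 269 to 333 TPM in IM. The Acadl difference was 0.51 ± 0.07 over cortex (adjusted p = 3.13e-05) and 0.54 ± 0.07 over IM (adjusted p = 1.42e-06), small in size but well outside the spread between libraries. Hadh, a later enzyme of the same cycle, was a gradient at 650, 549 and 251 TPM in cortex, OM and IM (means).

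Genes of oxidative phosphorylation and the tricarboxylic acid cycle were mostly called higher in OM than in IM. On either scale 0 were called higher than in cortex, beside 28.3% of all tested genes as deposited and 16.2% after scaling. All 16 oxidative phosphorylation genes were called higher than in IM on both scales, beside 17.2% and 36.3% of all tested genes. Against cortex 0 of them were called lower as deposited and 2 after scaling, beside 6.3% and 17.8%, and 0 were peaks on either scale. Atp5b, the catalytic subunit of ATP synthase, was at 3562 ± 186 TPM in OM, 3354 ± 97.3 TPM in cortex and 2452 ± 234 TPM in IM (SD, n = 5). Of 12 tricarboxylic acid cycle genes 11 were higher than in IM as deposited and 12 after scaling, 1 and 2 were lower than in cortex, and 0 were peaks. The 5 tested sodium pump and phosphocreatine genes, the 8 mitochondrial and segment nuclear regulators and the 16 glycolysis genes had 0 peaks on either scale. With 2.81% and 3.18% of all tested genes called peaks, 0 peaks in lists of 5 to 16 genes says nothing particular to them.

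All 11 peroxisomal genes were called higher in OM than in IM on both scales, beside 17.2% and 36.3% of all tested genes. Against cortex 1 was called lower as deposited and 2 after scaling, beside 6.3% and 17.8% of all tested genes. The single peak as deposited, beside 2.81% of all tested genes, was Acox2, an oxidase of bile acid precursors and branched fatty acids, at 131 to 169 TPM in OM, 63.1 to 98.8 TPM in cortex and 15.4 to 68.1 TPM in IM. Acox2 was a peak in 12 of the 24 alternatives. It was none after median-ratio scaling, quantile normalization or voom on the recovered reads, nor when any one of the 5 OM libraries or of cortex libraries 2 to 5 was left out. Crot, which hands medium-chain acyl groups from peroxisomes to carnitine and was named after its values were seen, was a peak in all 24 alternatives. Crot was at 509, 468, 504, 495 and 627 TPM in OM, at 142 to 299 TPM in cortex and at 112 to 290 TPM in IM.

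Glutathione and glutamine genes gave 3 further peaks. Gclc and Gclm, the catalytic and modifier subunits of the enzyme that limits glutathione synthesis, were the 2 peaks of 8 glutathione genes as deposited, and Gclc was the 1 after scaling, beside 2.81% and 3.18% of all tested genes. Gclc was at 310, 199, 246, 229 and 289 TPM in OM, 87.9 to 198 TPM in cortex and 110 to 214 TPM in IM, with a slight overlap, and was no peak without library 4 of IM. Gclm was at 291 to 350 TPM in OM, 153 to 251 TPM in cortex and 74.1 to 172 TPM in IM. Slc38a3, the glutamine transporter SNAT3, was the single peak of 8 glutamine and ammonia genes on both scales, at 57.5, 61.3, 52.2, 45.6 and 57.4 TPM in OM, 7.37 to 33.4 TPM in cortex and 8.08 to 33.3 TPM in IM. Slc38a3 was 1.90 ± 0.36 over cortex (adjusted p = 0.00107) and 1.30 ± 0.36 over IM (adjusted p = 0.00417).

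Hypoxia and osmotic genes held few peaks or dips, beside shares of 2.81% and 1.28% of all tested genes as deposited and 3.18% and 2.44% after scaling. Of 12 hypoxia response genes, Adm, which encodes the vasodilator adrenomedullin, was a dip as deposited at 4.29 to 7.44 TPM in OM, 7.63 to 10.4 TPM in cortex and 5.86 to 17.6 TPM in IM, and was a dip in 12 of the 24 alternatives, not after scaling. Epas1, the gene of HIF-2 alpha, was a gradient as deposited, at 53.1 to 60.8 TPM in OM between 42.7 to 48.5 TPM in cortex and 67.9 to 93.1 TPM in IM, and a peak after scaling. Slc6a6, the taurine transporter, was the single peak of 10 osmoadaptive genes as deposited, at 120.3 to 174 TPM in OM, 106 to 122 TPM in cortex and 79.9 to 104 TPM in IM, and none was a peak after scaling. Of 18 segment transcription factors, Irx1 was the single peak and Gata3 the single dip after scaling, and Foxi1 the single dip as deposited.

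As deposited, the dips were shallow on the cortical side. On that scale the median of all tested genes was 0.11 from cortex and -0.51 from IM. Of 21 dips that passed the naming rule, the 10 with the largest smaller difference were Spink8, Rnf183, Ociad2, Psat1, Iqgap2, Itpr2, Nucb2, Tbx2, Fam149a and Lrrc3, and 8 of these were dips in all 24 alternatives. That rule required OM libraries below every neighbour and a dip on both scales, so the alternative of median-ratio scaling was met by choice. The other alternatives refit the same libraries and are no independent check. Iqgap2 and Itpr2 were dips in 23, not under quantile normalization. No fixed list held more than 1 dip on either scale.

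Spink8, of the Kazal family of serine protease inhibitors, was at 27.9, 25.5, 19.8, 25.7 and 15.8 TPM in OM. It was at 61.0, 57.2, 44.6, 55.8 and 54.3 TPM in cortex and at 94.7, 59.5, 59.0, 100.1 and 50.2 TPM in IM. The OM libraries lay below both neighbours, as the naming rule required. The differences of Spink8 were -1.23 ± 0.19 from cortex (adjusted p = 0.000229) and -1.59 ± 0.19 from IM (adjusted p = 2.1e-06). Rnf183, which encodes a ubiquitin ligase, was at 37.5, 30.2, 33.5, 34.6 and 24.9 TPM in OM, at 52.7 to 70.8 TPM in cortex and at 132 to 219 TPM in IM. Rnf183 was at -0.98 ± 0.13 from cortex (adjusted p = 4.19e-05) and -2.44 ± 0.13 from IM (adjusted p = 1.32e-10).

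Psat1, the phosphoserine aminotransferase of serine synthesis, was the most lopsided of the 10. It was at 13.3, 13.9, 12.8, 14.1 and 9.74 TPM in OM, at 18.5 to 24.2 TPM in cortex and at 109 to 163 TPM in IM. Psat1 was thus -0.76 ± 0.12 from cortex (adjusted p = 0.000149) and -3.29 ± 0.12 from IM (adjusted p = 2.18e-12). Nucb2, the nucleobindin that gives rise to nesfatin, was nearly even on the scale as deposited. It was at 19.4 to 24.9 TPM in OM, 29.0 to 34.2 TPM in cortex and 33.5 to 44.5 TPM in IM. Tbx2, a T-box transcription factor gene, was at 30.2 to 35.3 TPM in OM, 37.0 to 52.2 TPM in cortex and 58.6 to 78.3 TPM in IM. Itpr2, an inositol trisphosphate receptor gene, was at 6.85 to 9.33 TPM in OM, 9.92 to 14.9 TPM in cortex and 14.2 to 19.2 TPM in IM. In each of these genes the OM libraries lay below every neighbour, as the naming rule required.

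**Figure D5:**
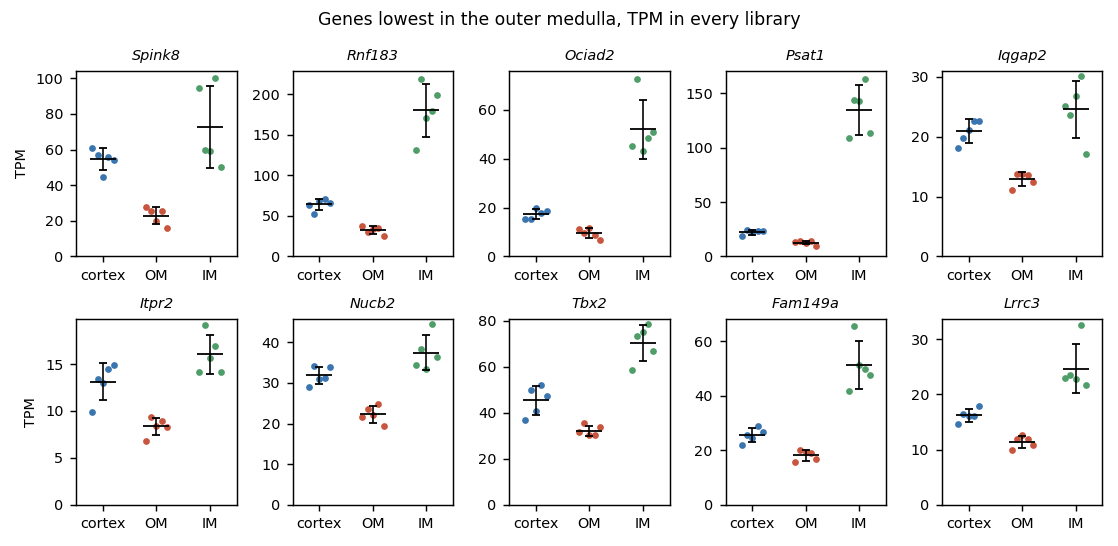
TPM (y axis, linear from 0) of the 10 leading dip genes in each of the 15 libraries, 1 panel per gene, with points for libraries 1 to 5 from left to right within each zone and black marks for the zone mean ± SD (n = 5). The OM points lie below all points of both neighbours in every panel, as the naming rule required, with a smaller step from cortex than from IM for Rnf183 and Psat1.

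Gpat3, an acyltransferase of triglyceride synthesis, stood below the level minimum of the naming rule and was named after its values were seen. It was at 4.38, 4.22, 3.94, 4.96 and 4.14 TPM in OM, at 6.89 to 11 TPM in cortex and at 17.6 to 23.4 TPM in IM, and was a dip in all 24 alternatives. Malat1, a long noncoding RNA of nuclear speckles, was likewise named after its values were seen. It was at 165 to 212 TPM in OM, 237 to 281 TPM in cortex and 291 to 311 TPM in IM, a dip as deposited (-0.50 ± 0.06 from cortex, adjusted p = 2.42e-05). After scaling its difference from IM was -0.15, with an adjusted p of 0.0675, and it was no dip.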

How the data were processed

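Bulk RNA-seq libraries of cortex, OM and IM were compared. The authors deposited TPM values per gene, made with STAR on mm9 per the submitters' processing notes. What counted the reads, on which annotation and with which strand option, is not stated, so reads of overlapping or antisense genes cannot be told apart. Gene model overlaps were read from whole RefSeq gene spans, without regard to exons or strand, so shared counted sequence was not established. Each column sums to 1000000 TPM, and 92 ERCC rows were all 0. The TPM steps gave back whole reads, to within 0.001, for all 19997 genes that were above 0 in 2 libraries or more (100%), while 762 genes seen in 1 library were not tried. They totalled 16264486 to 25195553 reads per library, and 1 TPM was worth 20.6 to 32.8 reads in the median gene.

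The 15052 genes that reached 1 TPM in 5 or more libraries were fitted as log2(TPM + 1) in limma 3.58.1 (R 4.3.3, statmod 1.5.0) over all 15 libraries, by zone means with trend and robust settings. The contrasts were OM minus the mean of cortex and IM, OM minus cortex and OM minus IM, two-sided, with Benjamini-Hochberg adjustment over all genes and calls under 0.05. A fold on this scale understates the change of low genes. Median-ratio scaling used genes above 0 in every library. The fit was tested on simulated data, and 24 alternatives were run, among them limma-voom on the recovered reads.

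Members and lists were chosen with earlier results of these data known, 17 lists of cell types and 13 of pathways, and no list was tested as a set. The rule for named genes took the 14 peaks and 10 dips on both scales with the largest smaller difference to a neighbour, no overlap with either, and at least 10 TPM in OM (peaks) or in both neighbours (dips), leaving out predicted, microRNA, small nucleolar, ribosomal and pseudogene rows. It added fixed list members called peak or dip, up to 3 abundant members of each described list and 7 landmarks. Crot, Panct2, Eri2, Fyb2, Higd1c, Gpat3, Malat1, Mir7664, Kap, Slc23a1, Tmem97 and the Slc22, sterol, taurine, angiotensin, MHC class II and plasma protein genes were picked after their values were seen. Replicate numbers were not taken as pairs. Results for a few genes are not reported here.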

Additional observations from a re-analysis of the deposited data

Results flagged for a closer look

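The named genes were screened zone by zone for a library standing apart from the other 4 of its zone, by Dixon's test at a critical value of 0.71. It picked out 37 of 351 groups of 5 libraries, where chance gives about 1 in 20. All values are TPM.

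Cortex library 1 was the highest cortex library for S3 and related peak genes. These were Napsa at 2585, Gpm6a at 89.5, Slc10a2 at 33.7, Slc5a10 at 209, Slc6a18 at 472, Slc38a3 at 33.4, Slc23a1, a vitamin C transporter gene, at 179, and Mme, the neprilysin gene, at 30.6. It was the lowest for Col3a1 at 5.44 and for Slc22a6 at 593. OM library 5 was the highest OM library for Mep1b at 612, Slc22a13 at 240.0, Methig1 at 457 and Crot at 627. IM library 4 was the lowest IM library for Slc22a7 at 50.6, Neurog2 at 2.08, Gclm at 74.1 and Csad, a taurine synthesis gene, at 95.4.

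Fat cell genes stood out in a few libraries. IM library 4 was the highest for Fabp4 at 698, Cfd at 131 and Cidec at 18.3, and also for the dip Lrrc3 at 32.5. Cortex library 2 was the highest for Fabp4 at 366 and Cidec at 17.9, for Cox4i1 at 2592 and Lum at 1.07, and the lowest for Cldn16 at 8.13.

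OM library 1 was the highest OM library for Fabp4 at 293, the endothelial genes Emcn at 102 and Egfl7 at 88.0, Rgs5 at 36.8, Fxyd4, a principal cell gene, at 361, and Cox4i1 at 2692. The other values that stood apart were Cldn16 at 24.2 in OM library 3, Epas1 at 53.1 as the lowest in OM library 2, Slc12a1 at 198 in cortex library 3 and Ociad2 at 72.8 in IM library 2.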

How the results depend on the processing

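Of 2134 values of the contrast for 89 named genes over 24 alternatives, 2089 kept their side of the threshold. Those of them that were called also kept their direction, which was not compared for contrasts called in neither fit. Of the rest, 36 lost the call, 8 gained it and 1 reversed, Epas1 at 0.18 after median-ratio scaling. Genes called higher and lower numbered 3981 and 4064 after median-ratio scaling and 3833 and 4258 after quantile normalization, which centre the zones on the median gene. Dips numbered 368 and 364 there. Strong peaks numbered 115 in voom. Strong dips, 2 in all, were 1 with a filter at 5 TPM, 5 after median-ratio scaling, 6 after quantile normalization, 9 with a pseudocount of 0.1, 6 in voom and 6 without cortex 1, OM 1 and IM 4. The cause was not tested. Leaving out 1 library gave 2064 to 2391 genes called higher, 7227 to 7722 lower, 307 to 476 peaks, 134 to 228 dips, 34 to 81 strong peaks (34 without IM library 4) and 2 to 6 strong dips. With replicate number as a block, the fit gave 2366 higher, 7773 lower, 473 peaks, 256 dips, 70 strong peaks and 4 strong dips, and Egf and Casr were then no peaks. The numbers share no stated source, and deviations of same-numbered libraries correlated at -0.0268 to 0.262, not over 0.1 in every pair. Yet in 10 of 15 comparisons a library correlated best with its own number out of 5 candidates. This is a hint from the data and not from the design, and the main fit leaves it out. With about 20.6 to 32.8 reads per TPM, genes near 1 TPM, such as Lum in cortex, are the least precise.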

Other observations

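Several gene groups assembled after their values were seen held peaks, so their counts are a description, to be read beside the 2.81% of all tested genes that were peaks as deposited and the 3.18% after scaling. Among 19 sterol synthesis genes, Cyp51, Sqle and Idi1 were peaks on both scales, and 5 of the 19 were peaks after scaling. Cyp51, the lanosterol demethylase gene, was at 242, 230.3, 220.1, 212 and 261 TPM in OM, at 39.7 to 130 TPM in cortex and at 47.0 to 138 TPM in IM. Sqle, the squalene epoxidase gene, was at 79.5 to 123 TPM in OM, 32.1 to 51.2 TPM in cortex and 41.9 to 64.1 TPM in IM, without overlap. Tmem97, the sigma-2 receptor, was also a peak in all 24 alternatives, at 50.6 to 65.0 TPM in OM, 26.1 to 39.4 TPM in cortex and 21.0 to 45.4 TPM in IM. Taurine synthesis had its enzymes Cdo1 and Csad as peaks on both scales, and 4 peaks among 6 tested genes as deposited. Cdo1, the cysteine dioxygenase gene, was at 253, 232, 214, 219 and 266 TPM in OM, at 118 to 156 TPM in cortex and at 169 to 205 TPM in IM.

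Of 9 tested genes of the angiotensin system, Agt, Ace and Mme were peaks on both scales, beside 2.81% and 3.18% of all tested genes. Another 1 of the 9 was a dip as deposited, beside 1.28% of all tested genes, and 0 were dips after scaling. On each scale 2 were called lower in OM than in cortex, beside 6.3% and 17.8% of all tested genes. Agt, the angiotensinogen gene, was at 103, 96.6, 105, 112 and 139.8 TPM in OM, at 15.9 to 45.7 TPM in cortex and at 22.0 to 65.0 TPM in IM, which is 2.14 ± 0.28 over cortex (adjusted p = 5.26e-05) and 1.33 ± 0.28 over IM (adjusted p = 0.000483). Ace was at 110.1 to 199.8 TPM in OM, 56.5 to 95.8 TPM in cortex and 26.3 to 73.2 TPM in IM. Ren1, the renin gene of juxtaglomerular cells, was no peak, at 52.8 to 92.2 TPM in OM within the cortex range of 46.7 to 135 TPM. Of 24 tested plasma protein genes, 13 were peaks as deposited and 18 after scaling, beside the same shares, and 8 with a pseudocount of 0.1. Apob, the apolipoprotein of lipoprotein particles, was at 29.9 to 45.1 TPM in OM, 7.87 to 20.8 TPM in cortex and 5.36 to 17.2 TPM in IM. Alb, the albumin gene, was a gradient at 3.30 to 5.74 TPM in OM. Serpina1d, at 235 to 390.2 TPM in OM, was a peak after scaling only, and reads of the near-identical Serpina1 copies may not have been separable. Of 8 MHC class II genes 4 were peaks as deposited, H2-Aa, H2-Ab1, H2-Eb1 and H2-DMb2, and only H2-DMb2 after scaling, again beside 2.81% and 3.18%. H2-DMb2 was at 3.16 to 4.39 TPM in OM, 1.53 to 2.76 TPM in cortex and 1.24 to 2.71 TPM in IM.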
